A study of Mus musculus with 19 samples.

Results

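The genes described here are 10 regulators of the G1 phase of the cell cycle: the D-type cyclins *Ccnd1*, *Ccnd2* and *Ccnd3*, the E-type cyclins *Ccne1* and *Ccne2*, the kinase *Cdk4*, the inhibitors *Cdkn1b*, *Cdkn2a* and *Cdkn2c*, and the pocket protein gene *Rb1*. They were selected by gene symbol and were found as 10 of the 46078 genes in the table. RNA-seq was performed on whole mouse mammary glands and mammary tumors, in 19 libraries. Tumors and glands were compared in mice with and without a conditional mutant p53 allele that Fsp-Cre, a transgene active in fibroblasts, switches on. MMTV-neu, carried by every animal other than the wild type, expresses the ERBB2 (HER2) receptor in mammary epithelium.

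The 4 MG-NP glands and 4 T-NP tumors came from mice with MMTV-neu, Fsp-Cre and 1 copy of the p53wm-R172H allele. All 4 T-N tumors and MG-N replicate 1 carried MMTV-neu and Fsp-Cre without that allele, whereas MG-N replicates 2, 3 and 4 carried MMTV-neu and the allele without Cre. The T-N against MG-N comparison therefore also sets Cre carriers against a group with 3 glands that lacked Cre. MG-N and MG-NP glands were free of malignant lesions but were taken from tumor-bearing mice. The 3 MG-WT glands were from wild-type mice of matching age. The MMTV-neu mice were on a mixed background of FVB, C57 and BALB/c, the strain of the wild-type mice was not given in the sources used here, and ages were not given in the labels. T-NP replicates 1 and 2 have library names with the same animal number. By a chi-square of their reads per gene they had the lowest of the 27 values for pairs of libraries within a group. Their mean was 39.2 against 53.9 to 571 for the other 26, and all 27 pairs were beyond sampling noise. This measure grows with depth, so it cannot rank them against the pairs of the deeper MG-WT libraries. Among MMTV-neu libraries the next pair was MG-N replicates 1 and 3, at 70.8. Whether T-NP replicates 1 and 2 are 2 tumors or 2 pieces of 1 animal was not given, and they were kept as 2 samples.

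Each of the 16 libraries from MMTV-neu mice held 20899152 to 27262440 reads on genes, and each MG-WT library 54677315 to 62645459. *Erbb2*, the mouse gene that corresponds to the transgene, had 73426 to 155042 normalized counts in the 8 tumors and 1845 to 14718 in the 8 glands of MMTV-neu mice. These counts may include reads of the transgene, which were not told apart from those of the mouse gene. *Trp53* counts do not separate the alleles and were 483 to 1554 in these 16 libraries. Each of 9 luminal epithelial markers reached 10 normalized counts in all 19 libraries, and none of the marker lists had a gene at 0 throughout a group. The MG-WT glands stood apart. The 9 white adipocyte markers summed to 2259 to 3392 normalized counts there and to 168057 to 476296 in MG-N and MG-NP. *Fos*, an immediate early gene, had 81338 to 100009 normalized counts in MG-WT and at most 1286 in the other libraries. The luminal markers summed to 84404 to 102037 in MG-WT and to 9065 to 27976 in MG-N and MG-NP. The 9 basal epithelial markers summed to 68341 to 82219 in MG-WT, 11411 to 27399 in these glands and 1639 to 5856 in the tumors. Depth, fat, epithelial content and immediate early transcripts cannot be told apart from genotype in any comparison with MG-WT. In MG-NP, 24 skeletal muscle genes took up 3.58%, 19.4%, 0.131% and 11.2% of the reads in replicates 1 to 4, against at most 0.202% in every other library.

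D-type cyclins bind CDK4 or CDK6, and E-type cyclins bind CDK2. Together these kinases phosphorylate RB1, which then releases E2F factors that transcribe the genes of DNA replication. INK4 proteins hold CDK4 and CDK6 away from D-type cyclins, while p27 and its relatives act mainly on cyclin E and CDK2. In the mammary gland, cyclin D1 is known for its role in the growth of the lobules in pregnancy and as a partner of ERBB2 in tumor formation.

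RefSeq promoter entries (GRCm38.p6) matched 6 of the 10 genes, with 9 annotated starts. *Ccnd1*, *Ccnd2*, *Ccne2* and *Rb1* were not matched. Each entry runs from 250 bases before to 50 after a start. For 3 starts the 150 bases upstream of the first base of the GENCODE transcript are shown. That base is 34 bases before the RefSeq start for the distal *Cdkn2a* start, 1 before it for *Cdk4* and the same for the proximal *Cdkn2a* start. They are shown because the *Cdkn2a* count adds up transcripts from 2 starts and because *Cdk4* is the kinase whose level separated all tumors from all glands. Capitals mark the GC box GGGCGG or its reverse complement CCGCCC, the CCAAT box and the E box CACGTG.
Cdkn2a distal start, chr4:89294654-89294803, minus strand: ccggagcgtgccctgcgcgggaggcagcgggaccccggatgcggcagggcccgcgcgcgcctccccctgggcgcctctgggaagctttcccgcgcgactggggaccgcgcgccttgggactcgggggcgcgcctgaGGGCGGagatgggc
Cdkn2a proximal start, chr4:89282193-89282342, minus strand: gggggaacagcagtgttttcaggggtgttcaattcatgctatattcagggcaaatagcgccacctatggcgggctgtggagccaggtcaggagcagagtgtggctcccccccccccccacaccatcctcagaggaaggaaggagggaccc
Cdk4, chr10:127063384-127063533, plus strand: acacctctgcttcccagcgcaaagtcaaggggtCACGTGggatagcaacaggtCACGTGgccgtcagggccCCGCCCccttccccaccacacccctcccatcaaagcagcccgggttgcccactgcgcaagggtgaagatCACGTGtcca

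The distal *Cdkn2a* start opens the transcript for p19ARF and the proximal start the transcript for p16INK4A. The distal window had 80% G or C with 22 CpG dinucleotides and the proximal window 60% with 2. E boxes, the letters bound by MYC and related factors, were found 4 times in the *Cdk4* entry, at bases -172, -118, -98 and -11 from the RefSeq start. The motif was searched after this sequence had been read. At least 1 E box was present in 7.15% of 32851 promoter entries and at least 3 in 0.0883%. Of the forms of the E2F site, only TTTGGCGC and TTTCGCGC were searched, on both strands. They were in none of the 9 entries of the members, as against 0.813% of all entries with either. Other forms were not searched, such as TTTCCCGC, which is in the distal *Cdkn2a* window above. The absence of the searched forms therefore does not show that the entries lack E2F sites. GC boxes were in 8 of these 9 entries and in 35.7% of all, and CCAAT boxes in 4 of 9 and in 37.4% of all. These matches describe letters only.

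In T-N against MG-N, 7 of the 10 were called, with *Ccnd1*, *Ccne1*, *Ccne2* and *Cdk4* higher and *Ccnd2*, *Cdkn2c* and *Rb1* lower in the tumors. A call is an adjusted p under 0.05 with at least a 2-fold difference, from limma with Benjamini-Hochberg adjustment over all genes tested, on the log2(normalized count + 1) scale. In that comparison 35.1% of all 17950 genes tested were called, 12.8% higher and 22.3% lower. In T-NP against MG-NP, 5 of the 10 were called, with *Ccnd1*, *Cdk4* and *Cdkn2a* higher and *Ccnd2* and *Rb1* lower, beside 38.7% of all genes, 14.7% higher and 24% lower. With T-NP replicates 1 and 2 averaged as 1 sample, these 5 calls were kept and *Ccne2* was called as well (1.10, adjusted p = 0.0213, limma). The ranges of 7 members were separate in T-N and MG-N, as were those of 49.2% of all genes, and the ranges of 6 members in T-NP and MG-NP, as were those of 52.6%. All 10 genes passed the filter on low counts in every comparison. In whole tissue, a loss of the cells that express a gene and a lower amount of its RNA per cell cannot be told apart.

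**Figure D1:**
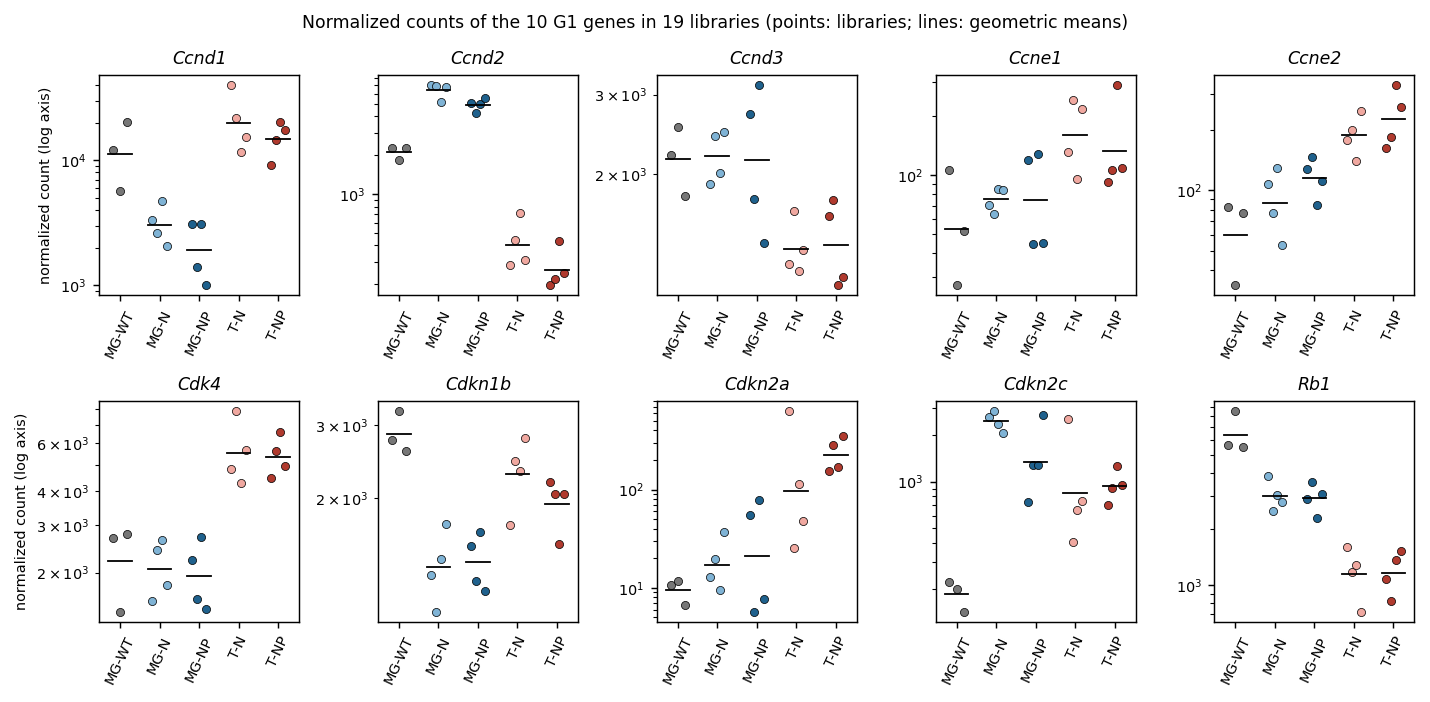
Normalized counts (log axis, a different range in each panel) of the 10 genes in the 5 groups, with a point for each of the 19 libraries and a line at the geometric mean of the group. The 8 tumors lie above the 8 MG-N and MG-NP glands for Ccnd1 and Cdk4 and below them for Ccnd2 and Rb1.

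*Ccnd1* (ENSMUSG00000070348, chromosome 7, 144929931 to 144939925 of GRCm38) encodes cyclin D1. Its normalized counts were 40482, 21751, 11648 and 15529 in the T-N tumors and 9191, 14557, 20179 and 17562 in the T-NP tumors. Of the glands, MG-N had 3333, 2629.6, 4725 and 2064, and MG-NP 3077, 1399, 3087 and 997. Every tumor was above every MG-N and MG-NP gland. The log2 fold change was 2.72 in T-N against MG-N (SE, the standard error, 0.40 and adjusted p = 7.96e-04 by limma) and 2.95 in T-NP against MG-NP (SE 0.41, adjusted p = 4.66e-04). The 3 MG-WT glands had 12075, 5711 and 20241, all above the other glands, and replicates 1 and 3 lay within the range of the tumors. The tumors were not distinguishable from MG-WT, with a log2 difference of 0.62 and a 95% interval from -0.32 to 1.56 (adjusted p = 0.222, limma).

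*Ccnd2* (ENSMUSG00000000184, chromosome 6, 127125162 to 127152193) encodes cyclin D2 and went the other way. The tumors had 281, 437, 719 and 310.4 normalized counts in T-N and 196, 219.6, 436 and 243 in T-NP. MG-N glands had 7059, 6875, 5143 and 6749, and MG-NP glands 5059, 4242, 4949 and 5560.3. All 8 tumors were far below all 8 glands. These were the largest differences among the 10 genes in both comparisons, with log2 fold changes of -3.97 (SE 0.28, adjusted p = 4.91e-05, limma) and -4.24 (SE 0.24, adjusted p = 8.84e-06). MG-WT glands lay between, at 2293, 1828 and 2294. The tumors were also lower than MG-WT, by a log2 fold change of -2.70 (SE 0.30, adjusted p = 1.89e-05, limma).

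Markers of several cell types that are not tumor epithelium were lower in the tumors. In T-N against MG-N all 9 white adipocyte, all 9 endothelial, all 9 T cell and 7 of 9 fibroblast markers were called lower. Of 9 macrophage markers 3 were called lower and 1 higher, and of 23 skeletal muscle genes tested 1 was called each way. The 9 luminal markers summed to 97538 to 184471 normalized counts in the tumors and to 9065 to 27976 in MG-N and MG-NP. In T-N, 7 of these markers were called higher and 1 lower, and in T-NP 8 higher and 1 lower. In T-NP against MG-NP, all 9 white adipocyte, all 9 endothelial and 8 of 9 T cell markers were called lower. So were 4 of 8 fibroblast markers tested and 23 of 24 skeletal muscle genes, while 2 macrophage markers were called each way. Of 9 basal epithelial markers, 9 were called lower in T-N and 8 in T-NP. The part of these cell types in the *Ccnd1* and *Ccnd2* differences was not tested.

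*Ccnd3* (ENSMUSG00000034165, chromosome 17, 47505051 to 47599691), which encodes cyclin D3, differed less. It had 1270.2, 1659, 1225 and 1362 normalized counts in T-N tumors against 1908, 2432, 2012 and 2482 in MG-N. These groups did not overlap, and the log2 difference of -0.68 (adjusted p = 0.00538, limma) was under 2-fold. In T-NP it had 1621, 1754, 1138 and 1186 and in MG-NP 2714, 1763, 3156 and 1411. The ranges overlapped, although T-NP replicates 3 and 4 were below every MG-NP gland, with a log2 difference of -0.62 and a 95% interval from -1.24 to 0.01. Replicates 2 and 4, the glands with most muscle transcripts, were the lowest of the 4. Without them the difference was -1.06 and was called (adjusted p = 0.00518, limma). MG-WT glands had 2207, 2539.6 and 1794.

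The make-up of the D-type cyclins differed between tumors and glands. Levels of different genes were compared as normalized counts per kilobase of the longest coding transcript. *Ccnd1* made up 87.3% ± 5.26 of the D-type cyclin level in T-N and 84.0% ± 6.68 in T-NP (SD, n = 4 each), as against 29.0% ± 9.59 in MG-N and 22.4% ± 6.27 in MG-NP (SD, n = 4 each). The 8 tumors ranged from 75.5% to 94.4% and the 8 glands from 14.7% to 41.7%. *Ccnd2* contributed 1.12% ± 0.790 in the tumors and 34.6% ± 7.78 in these glands (SD, n = 8 each), and *Ccnd3* 13.3% ± 5.60 and 39.7% ± 6.23. Cyclin D1 transcripts thus made up most of the D-type level in the tumors. The shares depend on the length chosen, since the exons of *Ccnd3* cover 8775 bases and its longest coding transcript 2113. Per kilobase of all exons, the *Ccnd3* share was 4.52% ± 2.12 in the tumors and 18.1% ± 3.80 in these glands, the *Ccnd1* share 94.4% ± 2.42 and 38.02% ± 10.5, and the *Ccnd2* share 1.06% ± 0.757 and 43.9% ± 9.97 (SD, n = 8 each). In MG-WT *Ccnd1* made up 67.3% ± 15.7 and *Ccnd2* 7.62% ± 2.06 (SD, n = 3). The sum of the 3 genes was 2671 ± 518 per kilobase in the 8 glands and 5763 ± 2553 in the 8 tumors (SD, n = 8 each), and every tumor was above every one of these glands. In MG-WT the sum was 4759 ± 1806 (SD, n = 3), from 3018 to 6623, which overlapped the tumors.

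**Figure D2:**
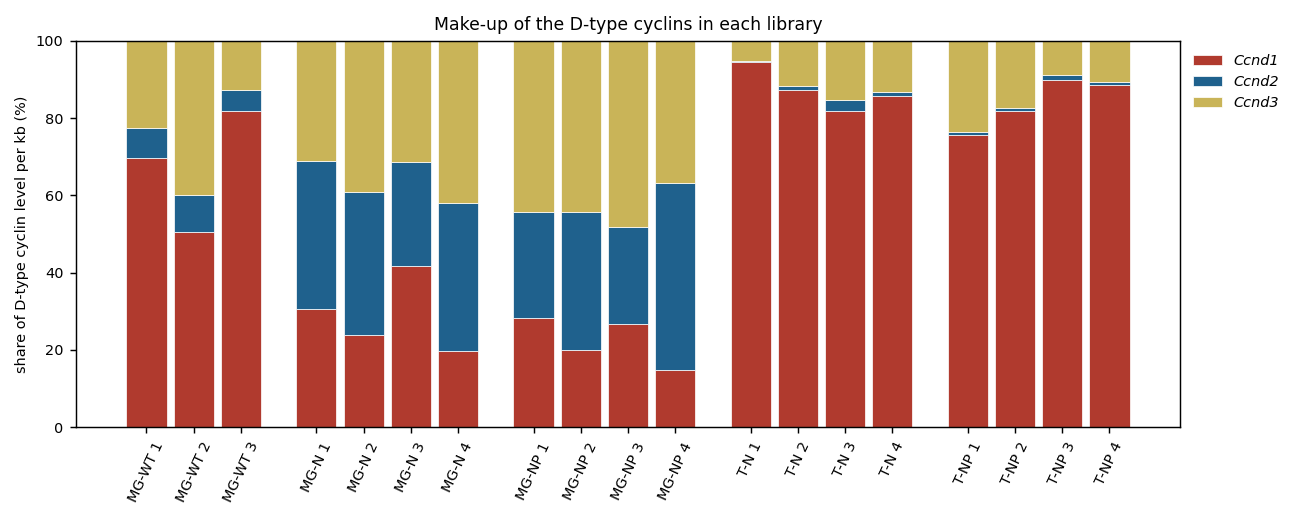
Share of each D-type cyclin in their summed level per kilobase (%), stacked to 100% for each of the 19 libraries. The Ccnd1 share is 75.5% to 94.4% in the tumors and 14.7% to 41.7% in MG-N and MG-NP, and the Ccnd2 share averages 1.12% in the tumors.

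The E-type cyclins were low in all groups. *Ccne1* (ENSMUSG00000002068, chromosome 7, 38097984 to 38107534), which encodes cyclin E1, had 132, 243, 95.9 and 219 normalized counts in T-N and 91.9, 106, 291 and 109 in T-NP. MG-N glands had 70.1, 63.2, 85.5 and 84.5, and MG-NP glands 120.2, 44.2, 129 and 45.2. Every T-N tumor was above every MG-N gland, whereas T-NP and MG-NP overlapped. The log2 fold change was 1.09 in T-N (SE 0.33, adjusted p = 0.0234, limma) and 0.82 in T-NP, where the 95% interval ran from -0.33 to 1.97 (adjusted p = 0.197). The T-N call was lost in 4 of the 8 fits that left out a library, without MG-N replicate 1 or 2 or T-N replicate 2 or 4, where the adjusted p was 0.0528 to 0.0610. It was also lost with all 5 groups in 1 fit (adjusted p = 0.0607, limma) and with the replicate number as a block (adjusted p = 0.0565). MG-WT had 106, 27.3 and 51.7. Although the tumors were called higher than MG-WT, by 1.44 on the log2 scale (adjusted p = 0.0189, limma), the groups overlapped and the call was lost without MG-WT replicate 2, where the difference was 0.97 (adjusted p = 0.124), without MG-WT replicate 3 (1.42, adjusted p = 0.0595) and with the replicate number as a block (1.41, adjusted p = 0.0580).

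*Ccne2* (ENSMUSG00000028212, chromosome 4, 11191351 to 11204779), which encodes cyclin E2, had 177, 200.2, 140.4 and 247 normalized counts in T-N against 107, 77.0, 129 and 53.6 in MG-N. In T-NP it had 161, 182.98, 335 and 259.7 and in MG-NP 127, 146, 84.5 and 111. Tumors and glands of the same genotype did not overlap. The log2 fold change was 1.10 in T-N (SE 0.32, adjusted p = 0.0201, limma) and 0.97 in T-NP (SE 0.29, adjusted p = 0.0207), just under 2-fold. The T-N call was lost without MG-N replicate 2 (adjusted p = 0.0516) or T-N replicate 4 (adjusted p = 0.0525), and without MG-N replicate 4 the difference was 0.87. With the replicate number as a block the call was lost as well (adjusted p = 0.0684, limma). MG-WT had 82.3, 33.7 and 77.5, below every tumor, with a log2 fold change of 1.76 (adjusted p = 6.64e-04, limma). *Ccne1* made up between 47.0% and 57.0% of the E-type level per kilobase in the 5 group means.

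*Cdk4* (ENSMUSG00000006728, chromosome 10, 127063534 to 127067920) encodes the kinase that the D-type cyclins activate. Its normalized counts were 4816, 7900.2, 4269.7 and 5646 in the T-N tumors and 4458, 5619, 6597 and 4949 in the T-NP tumors. MG-N glands had 1570.5, 2422, 2639.9 and 1796, and MG-NP glands 2233, 1592, 2711 and 1472. All 8 tumors were above all 11 glands, since MG-WT had 2673, 1434 and 2776. The log2 fold changes were 1.42 in T-N against MG-N (SE 0.24, adjusted p = 0.00146, limma), 1.46 in T-NP against MG-NP (SE 0.22, adjusted p = 6.98e-04) and 1.30 in tumors against MG-WT (SE 0.24, adjusted p = 5.86e-04). The last was 0.99, under 2-fold, without MG-WT replicate 2. *Myc*, whose protein binds E boxes such as those of the *Cdk4* promoter entry, was named after its values were seen. It had 1301 ± 354 normalized counts in T-N tumors, 764 ± 252 in MG-N glands (SD, n = 4 each), and 4615 ± 556 in MG-WT (SD, n = 3). The T-N difference of 0.78 on the log2 scale was under 2-fold (adjusted p = 0.0426, limma). In T-NP against MG-NP *Myc* differed by 0.66 (adjusted p = 0.208, limma). It was called lower in tumors against MG-WT, at -1.78 (adjusted p = 9.82e-06, limma), where *Cdk4* was called higher. Any link between *Myc* and *Cdk4* was not tested.

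*Cdkn1b* (ENSMUSG00000003031, chromosome 6, 134920401 to 134925513) encodes the inhibitor p27KIP1. It had 1725, 2454, 2319 and 2798 normalized counts in T-N against 1306, 1067, 1430.3 and 1735 in MG-N. In T-NP it had 2189.6, 2045, 1549.5 and 2045 and in MG-NP 1537, 1268, 1663 and 1193. Tumor and gland ranges touched in both genotypes. The log2 differences of 0.75 (adjusted p = 0.0125, limma) and 0.47 (adjusted p = 0.0345) were under 2-fold. MG-WT had the highest mean level, at 2767, 3243 and 2601, with T-N replicate 4 within its range.

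*Cdkn2a* (ENSMUSG00000044303, chromosome 4, 89274471 to 89294653), the locus of p16INK4A and p19ARF, varied most among libraries. It had 633, 25.3, 113 and 47.9 normalized counts in T-N and 156, 284, 170.2 and 349.6 in T-NP. MG-N glands had 12.7, 19.5, 9.39 and 37.1, and MG-NP glands 55.3, 5.71, 78.0 and 7.75. T-N replicate 1 was the highest of all libraries and T-N replicate 2 fell within the MG-N range. All 4 T-NP tumors were above all glands. The log2 fold change was 3.33 in T-NP against MG-NP (SE 0.82, adjusted p = 0.00814, limma). In T-N against MG-N it was 2.43 and not called (SE 0.92, adjusted p = 0.0532), though without T-N replicate 2 it was 3.06 and called (adjusted p = 0.0212, limma), and edgeR and DESeq2 called it too. MG-WT had 10.7, 11.7 and 6.72, from 13 to 25 reads, and all 8 tumors were higher, by 3.84 on the log2 scale (adjusted p = 0.00104, limma).

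The MG-NP glands fell into a high and a low pair for *Cdkn2a*. Replicates 1 and 3, with 55.3 and 78.0 normalized counts, had 6681 and 7737 normalized counts summed over 9 T cell markers and 10293 and 18268 over 9 B cell markers. Replicates 2 and 4, with 5.71 and 7.75, had 509.6 and 719 for T cells and 338 and 3409 for B cells. The high pair was also the one with fewer muscle transcripts. *Ccne1* showed the same pairs, with 120.2 and 129 in replicates 1 and 3 and 44.2 and 45.2 in replicates 2 and 4. The part of lymphocytes and muscle in these differences was not tested. Without replicates 2 and 4, *Cdkn2a* in T-NP against MG-NP was 1.77 on the log2 scale (adjusted p = 0.00841, limma), and 7 of the 10 genes were called in that comparison in place of 5. With the muscle score as a covariate *Cdkn2a* was 1.14 (adjusted p = 0.464, limma), *Cdk4* was 0.99 (adjusted p = 0.0578) and *Rb1* -0.77 (adjusted p = 0.0934), and none of the 3 was called. The same fit newly called *Ccnd3* at -1.53 (adjusted p = 0.00918, limma) and *Ccne2* at 1.72 (adjusted p = 0.0188). The muscle score, the mean log2 value of the 24 genes, was 7.91 to 15.6 in MG-NP and 3.25 to 7.44 in T-NP. These ranges do not overlap, so the fit cannot separate muscle from group, and its gained and lost calls decide nothing.

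*Cdkn2c* (ENSMUSG00000028551, chromosome 4, 109660876 to 109667189), which encodes the INK4 protein p18, had its lowest levels in MG-WT, at 224, 202 and 143 normalized counts. Values in MG-N were 2624, 2874, 2369 and 2068 and in MG-NP they were 735, 1273, 1285 and 2691. In the tumors it had 2540.4, 407, 657 and 750.4 in T-N and 701, 903, 1266 and 949 in T-NP. T-N replicate 1 was within the MG-N range and the other 3 T-N tumors were below it. The difference of -1.54 in T-N against MG-N (SE 0.48, adjusted p = 0.0258, limma) was lost with edgeR (adjusted p = 0.0874) and in 6 of the 8 fits that left out a library, without MG-N replicate 1, 2 or 3 or T-N replicate 2, 3 or 4, where the adjusted p was 0.0520 to 0.0631. In T-NP against MG-NP it was -0.52, with a 95% interval from -1.35 to 0.30. All 8 tumors were above MG-WT, with a log2 fold change of 2.25 (SE 0.44, adjusted p = 9.20e-04, limma).

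*Rb1* (ENSMUSG00000022105, chromosome 14, 73183673 to 73325822) encodes the retinoblastoma protein. The MG-WT glands had 5599, 8574 and 5463 normalized counts. Values in MG-N were 3854, 2504, 3032 and 2792 and in MG-NP they were 2905, 3563, 2291 and 3064. T-N tumors had 1601, 1171, 1277 and 721 and T-NP tumors 1083, 819.8, 1361 and 1526. The 3 kinds of tissue formed steps that did not overlap, with MG-WT highest and tumors lowest. The log2 fold change was -1.39 in T-N against MG-N (SE 0.25, adjusted p = 0.00199, limma), -1.32 in T-NP against MG-NP (SE 0.22, adjusted p = 0.00114) and -2.47 in tumors against MG-WT (SE 0.26, adjusted p = 1.17e-05).

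Compared with MG-WT, 7 of the 10 genes were called in the 8 tumors, 5 higher and 2 lower, beside 45.6% of all genes, 18.9% higher and 26.7% lower. The ranges of 7 members were separate, beside 54.2% of all genes. The 5 higher were *Ccne1*, *Ccne2*, *Cdk4*, *Cdkn2a* and *Cdkn2c*, and the 2 lower were *Ccnd2* and *Rb1*. In MG-N against MG-WT 5 were called, beside 37% of all genes, 19.1% higher and 17.9% lower, and in MG-NP against MG-WT 5, beside 32.6%, 16.4% higher and 16.2% lower. The glands did not overlap with MG-WT for 5 of the 10 in MG-N, beside 61.3% of all genes, and for 6 in MG-NP, beside 54.4%. In both of these, *Ccnd2* and *Cdkn2c* were higher and *Ccnd1*, *Cdkn1b* and *Rb1* lower. The comparisons share the MG-WT glands, so their agreement is not independent. For *Cdkn2c* the log2 fold changes were 3.72 in MG-N (SE 0.18, adjusted p = 3.01e-06, limma) and 2.84 in MG-NP (SE 0.41, adjusted p = 0.00177). For *Ccnd1* they were -1.88 (adjusted p = 0.00582) and -2.55 (adjusted p = 0.00812), for *Ccnd2* 1.59 (adjusted p = 6.29e-05) and 1.21 (adjusted p = 8.48e-04), and for *Cdkn1b* -1.07 (adjusted p = 9.83e-04) and -1.03 (adjusted p = 0.00240). *Rb1* differed by -1.09 and -1.13 (adjusted p = 0.00214 and 0.00517, limma). *Cdkn1b* and *Rb1* lay close to the 2-fold limit, and without MG-WT replicate 2 neither was called in either comparison, which left 3 of the 10. *Cdkn1b* was also under 2-fold without MG-N replicate 2 in MG-N, and without MG-NP replicate 2 or 4 in MG-NP. With the muscle score as a covariate, 2 of the 5 calls in MG-NP against MG-WT were left, those of *Ccnd2* and *Rb1*. *Ccnd1* was -0.78 (adjusted p = 0.613, limma), *Cdkn1b* -0.50 (adjusted p = 0.262) and *Cdkn2c* 2.15 (adjusted p = 0.136), and *Cdkn2a* was newly called at 5.25 (adjusted p = 0.0311). Muscle scores were 3.43 to 3.71 in MG-WT and 7.91 to 15.6 in MG-NP, so this fit cannot separate muscle from group either.

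**Figure D3:**
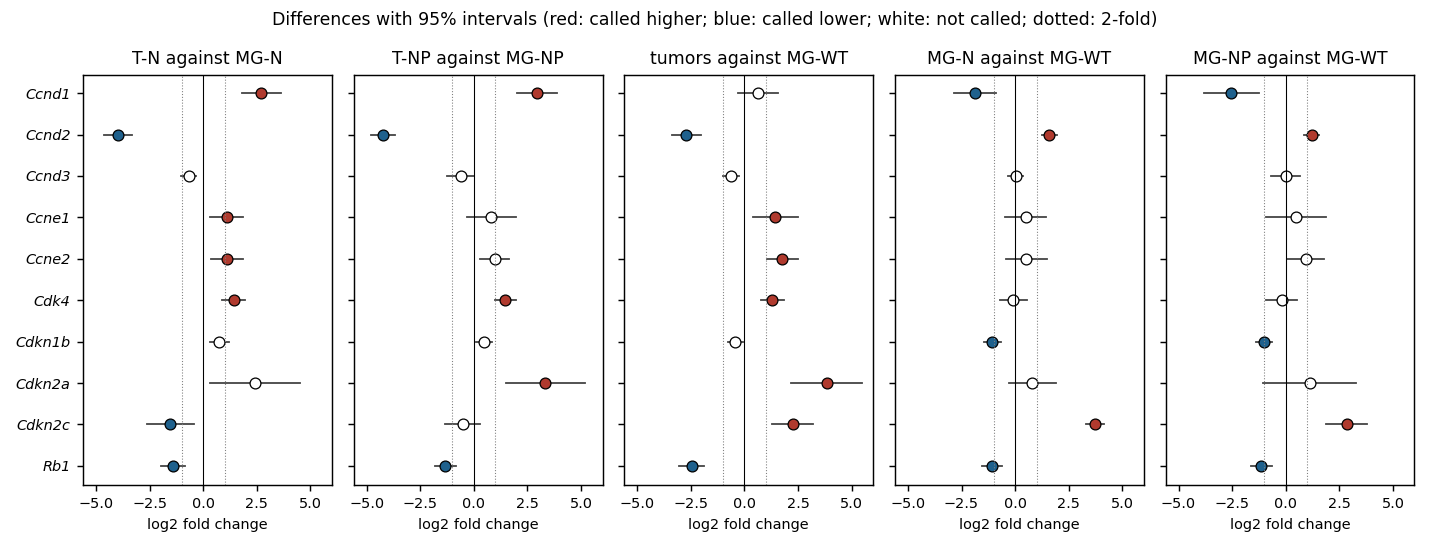
Log2 fold change of each gene (x axis, first group minus second) in 5 comparisons, as points with 95% intervals from limma. Red marks genes called higher, blue genes called lower and white genes not called, and dotted lines mark 2-fold. Ccnd2 has the lowest value in both comparisons of tumors with MG-N and MG-NP glands, at -3.97 and -4.24, and lies at 1.59 and 1.21 in these glands against MG-WT.

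The mutant p53 groups were compared directly with their controls of the same tissue. In MG-NP against MG-N, limma called 0 of the 10 genes, with 0% of all genes called, and 2 of the 10 had an unadjusted p under 0.05, beside 10.5% of all genes. These were *Ccnd2*, at -0.38 on the log2 scale (95% interval -0.71 to -0.05, adjusted p = 0.407), and *Cdkn2c*, at -0.88 (95% interval -1.67 to -0.08, adjusted p = 0.418). In T-NP against T-N, limma called 0 of the 10, beside 0.0421% of all genes, and 0 had an unadjusted p under 0.05, beside 7.27%. Neither edgeR nor DESeq2 called any of the 10 in these 2 comparisons. The narrowest intervals in the tumors were those of *Cdkn1b* (-0.65 to 0.17) and *Ccnd3* (-0.38 to 0.44), and *Cdk4* had -0.52 to 0.44. The widest was that of *Cdkn2a*, from -0.75 to 3.18 around a difference of 1.21. For *Ccnd1* the interval ran from -1.63 to 0.28 in the glands and from -1.33 to 0.46 in the tumors. The groups overlapped for all 10 genes in both comparisons, and of all genes 6.21% did not overlap in the glands and 4.21% in the tumors. In the tumors the intervals of *Ccnd1*, *Ccnd2*, *Ccne1*, *Cdkn2a* and *Cdkn2c* reached past 2-fold, so a change of that size could have been missed with 4 samples a group.

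The interaction contrast asked whether tumor and gland differed by another amount in mice with the mutant allele. Limma called 0 of the 10 genes, beside 0% of all genes, and 0 had an unadjusted p under 0.05, beside 7.93%. EdgeR and DESeq2 also called 0 of the 10. The largest interaction value was 1.02 for *Cdkn2c* (95% interval -0.35 to 2.40, adjusted p = 0.744, limma). A call in 1 genotype and not in the other, as for *Ccne1*, *Ccne2*, *Cdkn2a* and *Cdkn2c*, was thus not shown to be a difference between the genotypes.

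On the scale of normalized counts per kilobase, the order of the 10 genes changed with the tissue. In T-N, *Ccnd1* was highest at 5977 ± 3418 and *Cdk4* next at 2756 ± 779 (SD, n = 4 each), and their ranges overlapped. In T-NP the same genes led, at 4110.3 ± 1261 and 2633 ± 451. Both were also first and second per kilobase of all exons. *Ccnd3* followed at 653 ± 92.5 in T-N and 674 ± 146 in T-NP, but per kilobase of all exons it was 157 ± 22.3 and 162 ± 35.2 (SD, n = 4 each), with the means of *Cdkn1b*, *Cdkn2c*, *Rb1* and *Cdkn2a* above it in both. In MG-N, *Ccnd3*, *Cdk4*, *Ccnd2*, *Cdkn2c* and *Ccnd1* had means between 852 and 1045, and each overlapped the next, but per kilobase of all exons *Ccnd3* was 252 ± 33.1 and the other 4 had means between 649 and 925. *Ccnd2* was 1019.96 ± 139.8 in MG-N and 69.0 ± 31.6 in T-N, where only *Ccne2* had a lower mean. Per kilobase of all exons *Ccnd2* had the lowest mean of the 10 in T-N, at 46.4 beside 54.7 for *Ccne2*. In T-NP *Ccnd2* had the lowest mean on both scales. In MG-WT *Ccnd1* led at 3389 ± 1947, and *Cdkn2c* stood at 76.8 ± 17.0 (SD, n = 3 each), apart from *Ccnd2* above it and *Ccne1* below it.

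Genes of the same pathway, from lists written by hand, were compared in the same way. Whether their differences follow from those of the members or from tissue make-up was not tested. Of 20 mitosis genes, 20 were called higher in T-N against MG-N and 20 in T-NP against MG-NP, with median log2 fold changes of 2.91 and 2.93. All genes tested had medians of -0.05 and -0.07. *Cdk1*, the kinase of mitosis, rose by 3.51 in T-N (adjusted p = 4.51e-04, limma) and *Ccnb1*, its cyclin B1 partner, by 4.35 in T-NP (adjusted p = 0.00504). Of 20 S phase genes, 18 and 15 were called higher and 0 lower, with medians of 1.42 and 1.29. *Tk1*, a thymidine kinase, rose by 2.99 in T-N (adjusted p = 4.40e-04, limma), and *Rrm2*, a subunit of ribonucleotide reductase, by 3.16 in T-NP (adjusted p = 0.00277).

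The 30 other genes of the RB and E2F circuit moved less evenly. In T-N, 5 were called higher and 2 lower, and in T-NP 4 higher and 1 lower, with medians of 0.49 and 0.47. These counts are below the 35.1% and 38.7% of all genes called. *Ccna2*, which encodes cyclin A2, rose by 3.19 in T-N (adjusted p = 9.55e-04, limma) and by 3.35 in T-NP (adjusted p = 0.00380). *Cks1b*, an accessory subunit of the kinases, rose by 1.67 and 1.61 (adjusted p = 0.00493 and 8.23e-04, limma). *Cdkn1a*, which encodes p21 and is a p53 target, rose by 2.03 in T-N (adjusted p = 0.0158, limma) and differed by 0.91 in T-NP (adjusted p = 0.0772). *Cdkn1c*, which encodes p57, fell by 3.15 in T-N and by 2.28 in T-NP (adjusted p = 0.0148 and 6.87e-04, limma).

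Against MG-WT, the tumors had 19 of 20 mitosis genes and 11 of 20 S phase genes called higher and none called lower by limma. In MG-N and MG-NP, 0 and 1 mitosis genes were called higher than in MG-WT by limma, and 3 and 1 S phase genes were called lower. *Cdk6*, the other partner of D-type cyclins, was lower than in MG-WT in the tumors, by a log2 fold change of -2.42 (adjusted p = 7.33e-06, limma), with 880 ± 341 normalized counts (SD, n = 8) against 4477 ± 595 (SD, n = 3). It was lower than in MG-WT by nearly as much in the glands, at -1.92 in MG-N and -1.90 in MG-NP (adjusted p = 9.26e-05 and 6.39e-04, limma). *Cdk6* was not called between tumors and glands of MMTV-neu mice. The log2 difference was -0.20 in T-N against MG-N (adjusted p = 0.597, limma). In T-NP against MG-NP it was -0.81, under 2-fold (adjusted p = 0.00521, limma). *Cdkn2b*, which encodes p15 and lies beside *Cdkn2a*, was higher than in MG-WT in the tumors by 1.98 (adjusted p = 0.00343, limma), in MG-N by 1.62 (adjusted p = 0.00276) and in MG-NP by 1.16 (adjusted p = 0.0351), and was likewise not called between tumors and glands of MMTV-neu mice. In MG-NP against MG-N, T-NP against T-N and the interaction, limma called 0 genes of the 3 lists.

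**Figure D4:**
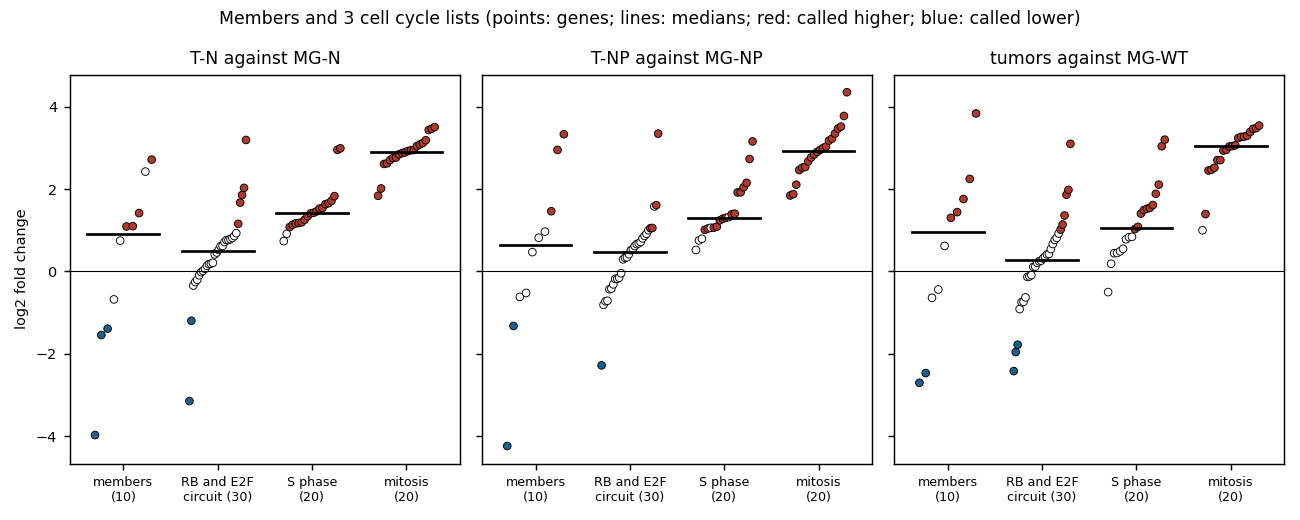
Log2 fold changes (y axis) of the 10 members and of the genes of 3 lists in T-N against MG-N, T-NP against MG-NP and tumors against MG-WT, with a point for each gene and a line at the median. The mitosis medians are 2.91, 2.93 and 3.04, and the members spread from called lower to called higher in each comparison.

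Which genes varied most like each member was measured by Pearson's r of the deviations from group means over 19 libraries, among 14832 genes. These values are descriptions, since libraries share tissue make-up. The 2 genes most like *Ccnd1* were *Etv6* (r = 0.885) and *Dyrk3* (0.878), and those most like *Ccnd2* were *Dse* (0.821) and *Gm6969* (0.818). For *Cdk4* they were *Ppil1* (0.930) and *Ddx39b* (0.928). *Ccne1* was followed most closely by *Klhl42* (0.895) and *Chaf1b* (0.887), a subunit of a chromatin assembly factor. The highest value of all was that of *Zfp646* with *Cdkn2a* (0.954), and *Rb1* had its highest with *Fbxo6* (0.855).

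Some members share bases with a gene on the opposite strand, and whether counting used strand was not stated in the sources used here. *Cdk4* shares 641 bases with *Tspan31*, which had 1116 to 3487 normalized counts, and *Ccne2* shares 5622 with *Ints8*, which had 846 to 2123 and thus more than *Ccne2* itself in every library. *Ccnd1* shares 1771 bases with *LTO1*, which had 279 to 1027. The longest overlap was that of *Rb1* with *Rcbtb2*, which had 927 to 2902, at 24171 bases. *Rb1* also shares 5400 bases with *Lpar6*, which had 554 to 1280.1. These are lengths of gene spans, introns included. Reads of such partners could be counted on a member if strand was not used.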

How the data were processed

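RNA was sequenced as 75-bp pairs. Per the labels a stranded total RNA kit was used, whereas the paper's methods name an mRNA kit. The authors aligned reads to GRCm38 with TopHat2 (version 2.1.1 in the submitters' processing notes) and Bowtie2. The counting tool and annotation are not given in the sources used here. The signal deposited by the authors is 1 table of normalized counts, read counts divided by a size factor per library. Dividing each value by the step of its library gave whole reads for 100% of values (tolerance 0.05). In T-N replicate 3 the step was nearly 1, so that scaled and unscaled counts look alike there.

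Symbols and positions were taken from GENCODE vM21 (97.97% of the identifiers matched). Limma (3.58.1, R 4.3.3) was fitted to log2(normalized count + 1), with only the compared groups in each fit. Genes needed at least 10 normalized counts in as many samples as the smaller group. Adjustment was by Benjamini-Hochberg over all genes tested, and calls needed an adjusted p under 0.05 and 2-fold. For single members, an exact permutation test (two-sided) was run, which cannot go below 0.0286. The scripts were tested on simulated data. The paper's methods state only DESeq2 with an adjusted p under 0.05. EdgeR (4.0.16) and DESeq2 (1.42.0) on the recovered reads, 2 other pseudocounts and filters, TMM scaling, a replicate block, a muscle covariate and left-out libraries were alternatives. Others were calls without the fold-change threshold, all 5 groups in 1 fit and T-NP replicates 1 and 2 averaged.

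The members, lists and tests were chosen with earlier results of these data known. All 10 members are named in every sample. Of each pathway list, counts are given with at most the 4 largest rises and falls among the calls, and for each member the 2 genes of most similar deviations were found. Marker lists (luminal and basal epithelium, fat, skeletal muscle, fibroblasts, endothelium, macrophages, T and B cells) served as measures of tissue. Labels give separate samples without stating animals for each, so p-values measure the spread between samples.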

Additional observations from a re-analysis of the deposited data

Results flagged for a closer look

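In 40 groups of 4 libraries, 1 for each gene and group of tumors or MMTV-neu glands, 2 held a library far from the others by Dixon's ratio of gap to range, which chance gives in about 1 of 20. *Ccnd2* in MG-N replicate 3 was 5143 normalized counts, below 6749, 6875 and 7059 (ratio 0.858). *Ccne1* in T-NP replicate 3 was 291 normalized counts, above 91.9, 106 and 109 (ratio 0.856). No cause was tested for either.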

How the results depend on the processing

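None of the 29 calls of members changed direction in any of 565 alternatives, 529 alternatives kept the call and 36 lost it, and 15 of the 29 calls held under every alternative run. The setting without a fold-change threshold is among these and keeps each of the 29 calls by construction. With 1 library left out in turn, the number of members called was 4 to 7 in T-N against MG-N (4 without MG-N replicate 2 or T-N replicate 4), 5 to 6 in T-NP against MG-NP, 3 to 5 in both MG-N and MG-NP against MG-WT (3 without MG-WT replicate 2), 5 to 7 in tumors against MG-WT (5 without MG-WT replicate 2) and 0 in MG-NP against MG-N, T-NP against T-N and the interaction. The number of single members with an exact permutation p under 0.05 was 7 in T-N against MG-N (4 to 8 with 1 library left out, 4 without MG-N replicate 4), 6 in T-NP against MG-NP (5 to 6), and 0 in MG-NP against MG-N and in T-NP against T-N (0 to 1 each). With 1 library left out of the comparisons with MG-WT, the exact test cannot reach 0.05 and was not run. With the skeletal muscle score as a covariate 3 members were called in MG-NP against MG-WT, 2 of the 5 called without it and *Cdkn2a*, and the muscle score itself separates these groups. Replicate numbers did not pair the samples: the correlation of deviations between same-numbered samples was -0.25 to 0.33, over 0.1 in 3 of 22 pairs, and the best match was the own number in 3 of 22. With the replicate number as a block, 5, 5, 5, 4 and 6 members were called in T-N against MG-N, T-NP against MG-NP, MG-N against MG-WT, MG-NP against MG-WT and tumors against MG-WT, and 0 in the others. Over all genes, DESeq2 called 519 in MG-NP against MG-N, 85 in T-NP against T-N and 327 for the interaction, where limma called 0, 7 and 0, and none of these was a member. Per kilobase of all exons, a scale chosen after seeing the data, the *Ccnd1* share was 94.9%, 93.9%, 41.2% and 34.8% in T-N, T-NP, MG-N and MG-NP. Leaving out the 2 MG-NP glands with most muscle reads was also chosen after seeing the data. Precision is limited most for *Cdkn2a*, with as few as 4 reads in a gland.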
